A study of Mus musculus with 6 samples.

Results

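The HoxC cluster holds 9 genes, *Hoxc4*, *Hoxc5*, *Hoxc6*, *Hoxc8*, *Hoxc9*, *Hoxc10*, *Hoxc11*, *Hoxc12* and *Hoxc13*, and all 9 were found by symbol among the 32285 genes measured in single cells of mouse autonomic ganglia. The cells came from pups at postnatal day 5. Sympathetic sources were the stellate ganglion, the coeliac-superior mesenteric complex and the lumbar chain. The complex and the chain are called the coeliac and lumbar ganglia below. The other sources were the parasympathetic sphenopalatine ganglion and the pelvic ganglion. Each ganglion gave 1 droplet library except the pelvic ganglion, which gave 2, called pelvic_1 and pelvic_2. The stellate, sphenopalatine and pelvic_1 libraries formed round 1 (reagents of version 2) and the coeliac, lumbar and pelvic_2 libraries round 2 (version 3), so that only the pelvic ganglion was measured in both. All pups carried a transgene for Cre recombinase and a tdTomato reporter in the Rosa locus, both sexes were represented, and no library without these alleles was available for comparison. How many pups were pooled per library is not given in the sources used here.

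HoxC genes encode transcription factors that bind DNA through a homeodomain, often together with partners of the Pbx, Meis and Pknox families. The genes of the cluster lie in 1 row, and along the trunk of the embryo genes at one end (*Hoxc4*) start to be expressed further towards the head than genes at the other end (*Hoxc13*). In spinal motor neurons this order sets the identity of columns at brachial, thoracic and lumbar levels. Sympathetic and pelvic ganglia arise from trunk and sacral neural crest, whereas the sphenopalatine ganglion arises from neural crest of the head.

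After filtering, 21442 droplets remained, with a median of between 5814 and 18528 UMIs per droplet in the 6 libraries (a UMI, or unique molecular identifier, marks 1 captured RNA). Of these droplets, 7052 were neurons, 8262 glial cells, 3161 fibroblasts, 1094 vessel cells (endothelial and mural cells together) and 524 macrophages, chosen on marker genes among which there was no Hox gene. All 4 neuronal, 5 glial, 5 fibroblast and 10 vessel markers were detected, and the genes leading each class fitted its name, with *Tubb3* among the leading genes of neurons, *Mal* and *Fabp7* of glia, *Dcn* and *Lum* of fibroblasts and *Cldn5*, *Pecam1* and *Kdr* of vessels. Glial cells had a median neuronal marker mean of 1.337, against 3.566 in neurons, fibroblasts 0.795 and vessels 0.896 on the scale of normalized log counts, so that some neuronal RNA was present in all classes. Of all droplets, 419 lay within 0.1 of the neuronal threshold of 3. Any 2 libraries shared between 0 and 94 droplet barcodes, at most 1.66% of the smaller library.

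In the mouse genome (GRCm38, gene models of GENCODE M21) the cluster spans chromosome 15, from 102921103 to 103036852, with *Hoxc13* at the lower coordinate and *Hoxc4* at the higher one. All 9 genes lie on the plus strand. Of the 16 genes annotated in this interval, 10 were in the count tables, the 9 HoxC genes and *Hotair*, a long non-coding RNA of the opposite strand between *Hoxc12* and *Hoxc11*. The only exonic overlap on 1 strand was between *Hoxc10* and a long *Hoxc5* transcript, over 166 bases (102967443 to 102967608), so reads there cannot be assigned to either gene with certainty. The genes are distinguished below by the start of their homeobox, the 180 bases within the last coding exon that encode the homeodomain. The first 30 bases are shown to make visible how the genes change along the cluster, from the GENCODE transcripts of GRCm38, 5′ to 3′ on the plus strand, and capitals mark each base unlike that of *Hoxc6*.
Hoxc4 (chr15:103035663-103035692): cCCaAgcgcTCGAgGACAGCctacAcCcgg
Hoxc5 (chr15:103015236-103015265): GgCaAgcgGTCccgAACCaGTtacAcGcgC
Hoxc6 (chr15:103010754-103010783): cggaggcgcggccgccagatctactctcgg
Hoxc8 (chr15:102992571-102992600): cggCgCAgcggTcgAcaAaCTtacAGCcgg
Hoxc9 (chr15:102983930-102983959): ACAaggAAGAAGcgcTGCCCctacAcCAAg
Hoxc10 (chr15:102970848-102970877): GgAaggAAGAAGAgGTGCCCctaTActAAA
Hoxc11 (chr15:102956480-102956509): ACCCgCAAGAAGcgcTGCCCTtaTtcGAAA
Hoxc12 (chr15:102938308-102938337): TCgCgAAAGAAGcgcAagCCGtaTtcGAAg
Hoxc13 (chr15:102927210-102927239): GggCgCAAGAAGcgcGTgCCctaTAcCAAg

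*Hoxc9* to *Hoxc13* share the letters AAGAAG in this stretch, which *Hoxc4*, *Hoxc5*, *Hoxc6* and *Hoxc8* do not have. Over the whole homeodomain of 60 residues, *Hoxc5* differed from *Hoxc6* at 9 positions, *Hoxc8* at 11, *Hoxc4* at 14, *Hoxc9* at 19, *Hoxc10* at 22, *Hoxc11* at 28, *Hoxc12* at 30 and *Hoxc13* at 34. *Hoxc9* and *Hoxc10* were identical at 81.7% of residues. *Hoxc9* to *Hoxc13* are called the posterior genes below, and *Hoxc4* to *Hoxc8* the anterior ones.

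Levels are given in CPM, the UMIs of a gene in all cells of a class per 1000000 UMIs of that class, with exact 95% Poisson intervals that cover counting error only. A summed level does not separate fewer expressing cells from less RNA per cell, so the share of neurons with a UMI is given as well. This share also rises with depth. With 1 library for every ganglion but the pelvic, differences between ganglia were not tested, and neighbours in an order of levels are said to be apart where their intervals do not overlap. UMIs are counted once per captured RNA and are not scaled by transcript length, so levels of different genes are compared only as shares of the captured HoxC RNA.

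In neurons, HoxC RNA was at or under the limit of detection in the sphenopalatine library and shifted along the cluster from the stellate through the coeliac and lumbar to the pelvic libraries. Of 76019261 UMIs in 1903 sphenopalatine neurons, 1 was from *Hoxc13* and 0 from each of the other 8 genes, which allows up to 0.0395 CPM for each (3 UMIs). A median of 0 HoxC genes was detected per sphenopalatine neuron, 2 per stellate neuron, 4 in the coeliac, lumbar and pelvic_1 libraries and 5 in pelvic_2. The shallowest of these neurons were those of the stellate, with a median of 26651 UMIs, and the deepest those of pelvic_2, with 108598. Genes at 5 CPM or more, with an interval above that of the sphenopalatine neurons, numbered 5 in stellate neurons (*Hoxc4*, *Hoxc5*, *Hoxc6*, *Hoxc8*, *Hoxc9*), 4 in coeliac neurons (the same without *Hoxc5*), 5 in lumbar neurons (with *Hoxc10* added) and 6 in pelvic neurons of both libraries (with *Hoxc11* added).

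**Figure D1:**
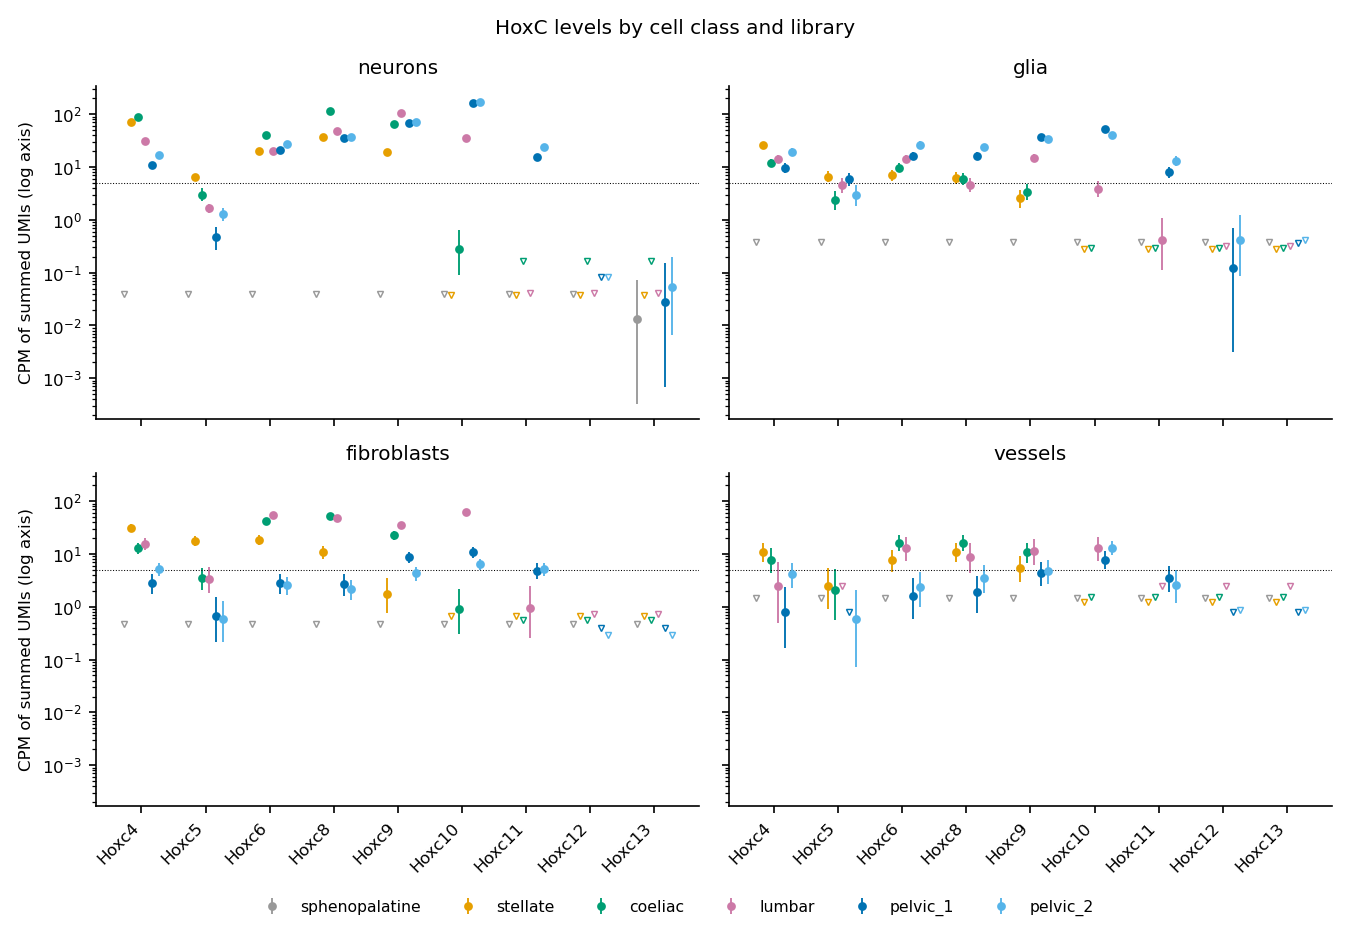
Level of each HoxC gene (x axis, in the order of the cluster) in CPM of summed UMIs (y axis, log scale) in neurons, glia, fibroblasts and vessels, 1 colour per library, with 95% Poisson intervals. Open triangles are drawn where no UMI was found, at the CPM that 3 UMIs would give, and the dotted line marks 5 CPM. In neurons *Hoxc10* and *Hoxc11* are highest in the 2 pelvic libraries, and all sphenopalatine symbols for *Hoxc4* to *Hoxc12* are open.

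The most anterior gene, *Hoxc4*, was lower in the neurons of both pelvic libraries than in those of any sympathetic library. *Hoxc4*, a paralogue group 4 gene expressed from cervical levels, was at 72.4 CPM in stellate neurons (95% interval 70.5 to 74.3), 87.0 in coeliac (82.7 to 91.4), 31.1 in lumbar (29.8 to 32.4), 11.1 in pelvic_1 (10.1 to 12.3) and 16.6 in pelvic_2 (15.3 to 17.9). All neighbours in this order were apart, also the 2 pelvic libraries, whose mean was 13.8 ± 3.9 CPM (SD, n = 2). The lumbar level was 2.24 times the pelvic mean. A *Hoxc4* UMI was found in 78.4% of stellate, 89.5% of coeliac, 77.6% of lumbar, 33.8% of pelvic_1 and 63.0% of pelvic_2 neurons. After thinning each neuron to 4000 UMIs, these shares were 27.3%, 30.6%, 14.7%, 4.48% and 7.45% in the same order.

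*Hoxc5*, which with *Hoxa5* is needed for phrenic motor neurons, was the weakest of the anterior genes in neurons. Its level was 6.44 CPM in stellate, 3.00 in coeliac, 1.66 in lumbar, 0.463 in pelvic_1 and 1.27 in pelvic_2 neurons. The intervals of the lumbar and pelvic_2 libraries overlapped, and the other neighbours were apart. Its highest levels were thus in the ganglion nearest to the head among those with HoxC RNA.

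*Hoxc6* and *Hoxc8*, which mark motor neurons at limb and upper thoracic levels, peaked in the coeliac ganglion. *Hoxc6* was at 20.2 CPM in stellate, 40.8 in coeliac, 20.2 in lumbar, 21.3 in pelvic_1 and 26.8 in pelvic_2 neurons, and its stellate, lumbar and pelvic_1 intervals overlapped. *Hoxc8* was at 37.5 CPM in stellate, 114 in coeliac, 48.9 in lumbar, 35.2 in pelvic_1 and 37.3 in pelvic_2 neurons. The coeliac interval of *Hoxc8* (109 to 119 CPM) was above all others, the lumbar came next, and the stellate and pelvic libraries overlapped. The pelvic means were 24.1 ± 3.9 CPM for *Hoxc6* and 36.2 ± 1.5 CPM for *Hoxc8* (SD, n = 2).

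*Hoxc9*, which sets the thoracic columns of motor neurons and represses the limb programme, was lowest in the stellate and highest in the lumbar library. It was at 18.8 CPM in stellate (17.9 to 19.8), 65.9 in coeliac (62.2 to 69.8), 107 in lumbar (105 to 109), 68.9 in pelvic_1 (66.3 to 71.7) and 72.5 in pelvic_2 neurons (69.8 to 75.3). The coeliac and both pelvic intervals overlapped in sequence, and the lumbar and stellate libraries were apart from them on either side. A *Hoxc9* UMI was found in 20.2% of stellate, 77.2% of coeliac, 91.7% of lumbar, 87.8% of pelvic_1 and 86.8% of pelvic_2 neurons.

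*Hoxc10* and *Hoxc11*, which act at lumbar and sacral levels of the trunk and in the hindlimb, were the genes that separated the pelvic neurons from the others. *Hoxc10* was at 0 UMIs in stellate neurons, 0.278 CPM in coeliac neurons, where all 5 UMIs came from 1 neuron, 35.0 CPM in lumbar (33.6 to 36.4), 166 in pelvic_1 (162 to 170) and 172 in pelvic_2 neurons (168 to 177). The pelvic libraries overlapped with each other and had a mean of 169 ± 4.8 CPM (SD, n = 2), 4.83 times the lumbar level. Within round 1, the level in pelvic_1 was at least 4383-fold higher than in the stellate library, taken at 3 UMIs. A *Hoxc10* UMI was found in 98.4% of pelvic_1 neurons (97.4 to 99.1, exact binomial interval), 90.4% of pelvic_2 neurons (86.9 to 93.2) and 55.5% of lumbar neurons (52.2 to 58.7).

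*Hoxc11* was at 15.3 CPM in pelvic_1 (14.1 to 16.6) and 24.1 CPM in pelvic_2 neurons (22.5 to 25.7), and at 0 UMIs in the neurons of every other library. The 2 pelvic intervals did not overlap, and the mean was 19.7 ± 6.2 CPM (SD, n = 2). In pelvic_2 it was at least 580.8-fold higher than in the lumbar library of the same round. *Hoxc12* had 0 UMIs in all neurons, and *Hoxc13*, which is known from hair and nail, had 1 UMI in pelvic_1 and 2 in pelvic_2 neurons, at or under the limit of 3 UMIs. *Hotair*, from between *Hoxc11* and *Hoxc12*, had 63 UMIs in pelvic_1 neurons (1.72 CPM), 95 in pelvic_2 neurons (2.57 CPM) and 0 in the neurons of the other libraries.

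Macrophages, taken as the class that should lack this RNA, had few HoxC UMIs. In the stellate library, 4.83% of 207 macrophages had a *Hoxc4* UMI (13 UMIs, 9.56 CPM), at a median depth of 5964 UMIs against 26651 in neurons. In pelvic_1, 3.54% of 113 macrophages had a *Hoxc10* UMI (4 UMIs, 4.33 CPM), at 7277 against 39381 UMIs. These levels were below those of the neurons of the same libraries. The stellate *Hoxc4* level (5.09 to 16.4) was also below glia (26.4 CPM) and fibroblasts (31.5), but overlapped vessels (10.9, 7.11 to 15.9). In pelvic_1, *Hoxc8* was at 4.33 CPM in macrophages (4 UMIs in 1 cell), 2.65 in fibroblasts, 1.89 in vessels and 16.4 in glia. *Hoxc9* was at 6.49 CPM in these macrophages (2.38 to 14.1) and 8.74 in fibroblasts (6.76 to 11.1). *Hoxc6* was at 2.16 (0.262 to 7.82) and 2.78 CPM (1.72 to 4.25). *Hoxc4* and *Hoxc11* had 0 UMIs in these macrophages (upper bound 3.99 CPM). The sphenopalatine and coeliac macrophages had no HoxC UMI. Only 25 coeliac macrophages were found (upper bound 10.0 CPM per gene), and other sphenopalatine classes had at most 1 HoxC UMI. After thinning each neuron to 4000 UMIs, a *Hoxc10* UMI remained in 13.2% of lumbar, 47.0% of pelvic_1 and 45.8% of pelvic_2 neurons and in 0 of 1893 sphenopalatine neurons. The thinned shares of *Hoxc9* were 6.33% in stellate, 18.1% in coeliac, 31.7% in lumbar, 24.4% in pelvic_1 and 24.9% in pelvic_2 neurons, the same order of ganglia as the CPM, and for *Hoxc11* they were 6.84% and 9.17% in the pelvic libraries.

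Members that differed by 2-fold or more between neurons of libraries sharing a round, on (CPM + 1) and among genes at 5 CPM or more in either library, were counted beside the share of all genes that did so. From the stellate to pelvic_1, 3 of 7 HoxC genes were higher (*Hoxc9*, *Hoxc10*, *Hoxc11*), against 6.50% of all genes, and 2 of 7 were lower (*Hoxc4*, *Hoxc5*), against 3.80%. From the lumbar library to pelvic_2, 2 of 6 were higher (*Hoxc10*, *Hoxc11*), against 6.05% of all genes, and 0 of 6 lower, against 3.78%. From the coeliac to the lumbar library, 1 of 5 was higher (*Hoxc10*), against 1.00%, and 2 of 5 were lower (*Hoxc4*, *Hoxc8*), against 1.31%. Between the pelvic libraries of the 2 rounds, 0 of 6 HoxC genes differed by this amount in either direction, where 3.55% of all genes were higher in pelvic_2 and 1.08% lower. The shares over all genes count differences between 2 libraries and are not an error rate.

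A measure that does not depend on depth or on genes outside the cluster is the share of HoxC UMIs that came from the posterior genes, *Hoxc9* and beyond. In neurons it was 12.1% in the stellate library (of 12332 HoxC UMIs, exact binomial interval 11.6 to 12.7), 21.3% in the coeliac (of 5588, 20.2 to 22.4), 58.2% in the lumbar (of 17634, 57.5 to 59.0), 78.6% in pelvic_1 (of 11665, 77.8 to 79.3) and 76.7% in pelvic_2 (of 12955, 75.9 to 77.4). The sum of all HoxC genes went another way, with 155 CPM in stellate, 311 in coeliac, 244 in lumbar, 318 in pelvic_1 and 351 in pelvic_2 neurons. The coeliac and pelvic libraries thus had similar totals made of different genes. In glia the posterior share was 5.25%, 10.3%, 33.5%, 66.8% and 55.0% in the same order of libraries. In fibroblasts it was 2.22%, 17.2%, 44.4%, 73.2% and 60.2%. In vessels it was 14.6%, 20.2%, 50.0%, 78.4% and 66.0%. The order of the values was stellate, coeliac, lumbar and then the pelvic libraries in all 4 classes. In neurons and fibroblasts all of these steps were apart, whereas the stellate and coeliac intervals overlapped in glia and in vessels, and so did those of lumbar and pelvic_2 vessels (36.8 to 63.2 and 56.2 to 75.0). Of the 106 HoxC UMIs of pelvic_2 vessels, 47 came from 1 cell, and without it the share was 52.5%, beside 47.3% in lumbar vessels treated in the same way. The shares of glia, fibroblasts and vessels can include neuronal RNA, whose part in their order was not tested. A comparison with neuron-restricted genes is given below.

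**Figure D2:**
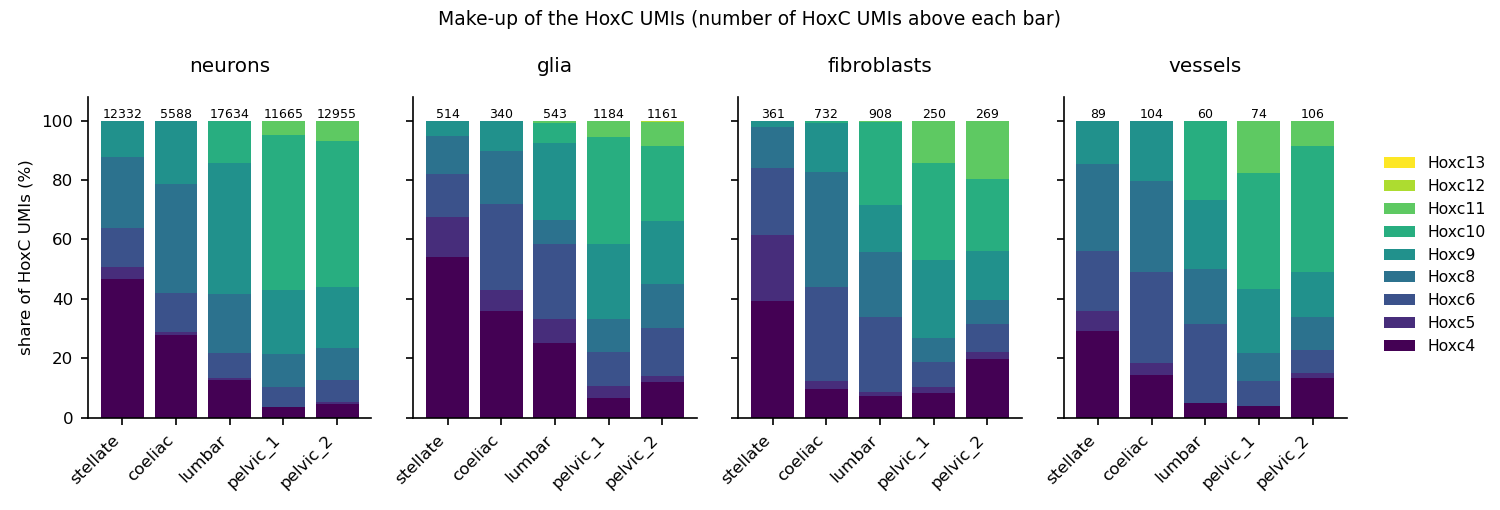
Share of HoxC UMIs (y axis, percent) from each HoxC gene in each class and library (x axis), with the number of HoxC UMIs above each bar. The part of the bar from *Hoxc9* and the genes beyond it is larger in the pelvic libraries than in the stellate in all 4 classes, and in neurons it is 12.1% in the stellate and 78.6% in pelvic_1.

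Within a library, several HoxC genes were not spread over neurons as depth alone would give. The lumbar library came from a chain and the coeliac library from a complex. Neurons from different parts of these sources cannot be told apart here. The share of neurons without a UMI was compared with the share expected if every neuron of the library had the same fraction of the gene in its RNA and only its depth differed. Lumbar neurons stood furthest from this for *Hoxc10*, with 44.5% of neurons without a UMI against 17.1% expected, while single lumbar neurons had up to 22 UMIs. In stellate neurons 64.1% had no *Hoxc8* UMI against 38.6% expected, and 79.8% no *Hoxc9* UMI against 60.0%. The tenth of stellate neurons richest in each gene held 64.3% of the *Hoxc8* and 81.2% of the *Hoxc9* UMIs.

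Other genes were closer to the expectation from depth. For *Hoxc4* in stellate neurons, 21.6% had no UMI against 19.2% expected, and for *Hoxc10* in pelvic_1 neurons 1.57% against 0.895%. In pelvic_2 neurons 9.59% had no *Hoxc10* UMI against 6.42% expected. *Hoxc11* in pelvic_2 was between these, with 38.4% against 22.9%. *Hoxc8* and *Hoxc9* departed from it together in the coeliac library as well, with 15.2% against 6.74% and 22.8% against 12.1%. Across single neurons the levels of *Hoxc8* and *Hoxc9* correlated, as a description over neurons that share a library, with Spearman coefficients of 0.472 in the stellate, 0.388 in the coeliac, 0.405 in the lumbar, 0.0938 in the pelvic_1 and 0.396 in the pelvic_2 library. This pair had the highest coefficient in the stellate, coeliac and lumbar libraries only. All pairs compared in pelvic_2 were between 0.205 and 0.475, and in pelvic_1 *Hoxc6* with *Hoxc9* was higher, at 0.169. By the shares without a UMI, stellate neurons included neurons rich in and neurons poor in *Hoxc8* and *Hoxc9*, and lumbar neurons did so for *Hoxc10*. Lumbar *Hoxc8*, with 20.0% against 11.8%, was further from the expectation than lumbar *Hoxc9*, which was close to it with 8.28% against 5.51%.

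**Figure D3:**
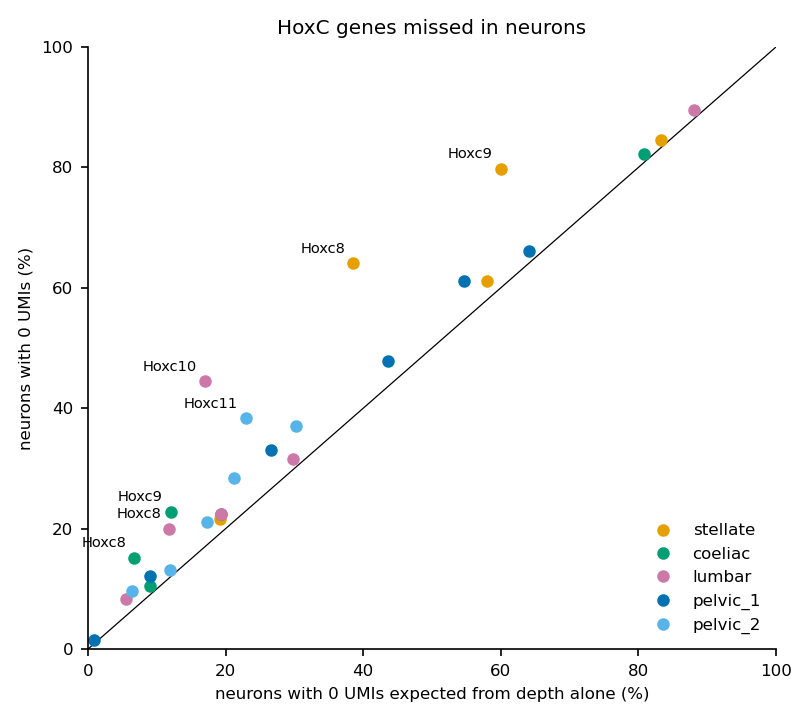
Neurons with 0 UMIs of a HoxC gene (y axis, percent of the neurons of a library) against the percentage expected from the depth of each neuron alone (x axis), 1 point per gene and library, with the diagonal of equality. Points above the line have more neurons without a UMI than depth gives, and genes more than 7.5 points above it are labelled, with lumbar *Hoxc10* (44.5% against 17.1%) and stellate *Hoxc8* (64.1% against 38.6%) furthest.

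Lumbar neurons with a *Hoxc10* UMI were compared with lumbar neurons without one, within bands of depth, for the other HoxC genes. *Hoxc4* was lower in neurons with a *Hoxc10* UMI, at 38.8 against 45.5 CPM in neurons under 50000 UMIs, 29.2 against 43.1 CPM between 50000 and 90000 UMIs and 21.2 against 39.9 CPM above 90000 UMIs. The intervals were apart in the upper 2 bands and overlapped in the lowest. *Hoxc9* was higher in them, at 109 against 98.8 CPM, 97.9 against 83.7 CPM and 119 against 107 CPM, with intervals that overlapped in the lowest band and were apart in the upper 2. For *Hoxc5*, *Hoxc6* and *Hoxc8* the intervals overlapped in every band. *Hoxc6* was lower in neurons with a *Hoxc10* UMI in the lowest and highest bands, and higher in the middle band. *Hoxc8* was higher in them in the lowest band and lower in the upper 2, and *Hoxc5* was higher in them in every band. All neurons of this comparison came from 1 library, so it describes that library and was not tested.

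Pelvic neurons were split by transmitter, using marker genes and no Hox gene, into 171 noradrenergic and 1087 cholinergic neurons, of which 72 had both *Th* and *Chat* RNA. *Hoxc11* was lower in the noradrenergic neurons, at 4.10 against 17.2 CPM in pelvic_1 and 5.02 against 26.3 CPM in pelvic_2, so that it was 4.19-fold and 5.23-fold higher in the cholinergic neurons. *Hoxc4* went the other way, at 16.8 against 10.2 CPM and 29.9 against 15.1 CPM, 1.65-fold and 1.98-fold higher in the noradrenergic neurons. The intervals of both genes were apart in both libraries, and without the neurons that had both *Th* and *Chat* the folds were 4.07 and 5.13 for *Hoxc11* and 1.58 and 2.03 for *Hoxc4*. *Hoxc10*, by contrast, was at 183 against 163 CPM in pelvic_1 and 188 against 171 CPM in pelvic_2. *Hoxc6*, *Hoxc8*, *Hoxc9* and *Hoxc10* all stayed within 1.5-fold in both libraries. With 2 libraries these differences were not tested.

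**Figure D4:**
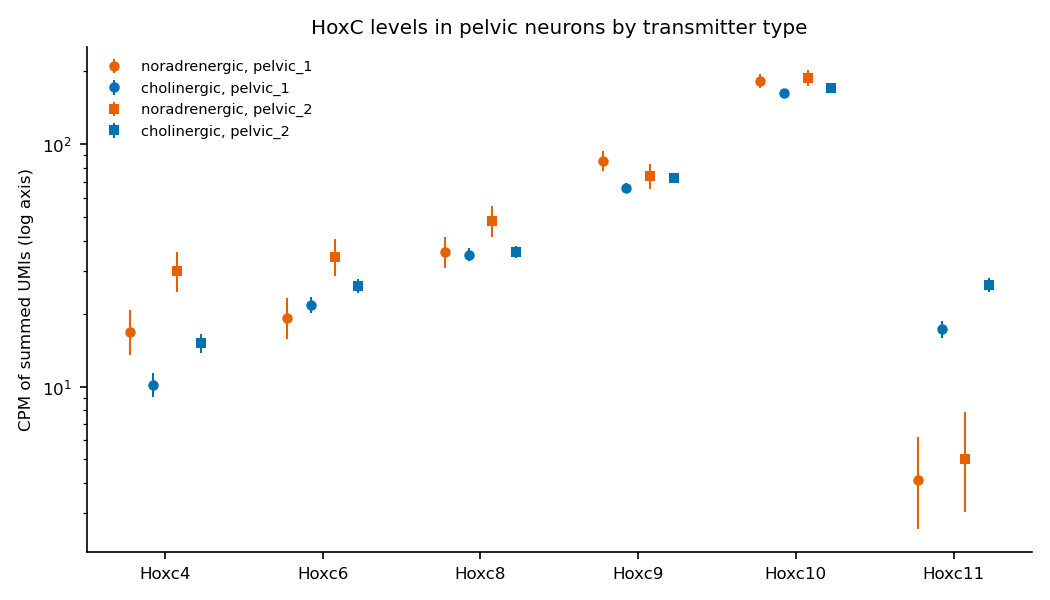
Level of the HoxC genes (y axis, CPM of summed UMIs, log scale) in noradrenergic and cholinergic pelvic neurons of pelvic_1 and pelvic_2, with 95% Poisson intervals. *Hoxc11* is higher in the cholinergic neurons of both libraries (17.2 against 4.10 CPM and 26.3 against 5.02 CPM), and *Hoxc4* is lower in them.

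In glial cells, as in neurons, *Hoxc10* and *Hoxc11* were highest in the pelvic ganglion. *Hoxc9*, highest in the lumbar library in neurons, was highest in the pelvic libraries in glia. *Hoxc10* was at 0 UMIs in stellate and coeliac glia, 3.88 CPM in lumbar glia (2.73 to 5.35), 52.6 in pelvic_1 glia (47.7 to 57.8) and 41.0 in pelvic_2 glia (36.5 to 46.0), with a pelvic mean 12.1 times the lumbar level. *Hoxc11* was at 0 UMIs in stellate and coeliac glia, 4 UMIs (0.419 CPM) in lumbar glia, and 7.90 and 13.1 CPM in pelvic glia. *Hoxc12* had 1 UMI in pelvic_1 and 3 in pelvic_2 glia, at or under the limit of 3 UMIs. *Hoxc10* and *Hoxc11* were thus apart between the lumbar and pelvic glia. The anterior gene *Hoxc6* was at 7.02 CPM in stellate, 9.68 in coeliac, 14.4 in lumbar, 16.4 in pelvic_1 and 26.5 in pelvic_2 glia. Its lumbar and pelvic_1 intervals overlapped.

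*Hoxc8* and *Hoxc9* were higher in pelvic than in lumbar glia, although in neurons they were lower. *Hoxc8* was at 6.26 CPM in stellate, 5.87 in coeliac, 4.61 in lumbar, 16.4 in pelvic_1 and 23.9 in pelvic_2 glia. *Hoxc9* was at 2.56, 3.42, 14.8, 37.0 and 34.6 CPM in the same libraries. The pelvic means were 20.1 ± 5.3 CPM for *Hoxc8* and 35.8 ± 1.7 CPM for *Hoxc9* (SD, n = 2), 4.37 and 2.42 times the lumbar levels. *Hoxc4*, at 26.4, 11.9, 14.4, 9.76 and 19.5 CPM, was highest in stellate glia, and the other 4 libraries overlapped in sequence. *Hoxc5* was at 6.55 CPM in stellate, 2.35 in coeliac, 4.51 in lumbar, 5.93 in pelvic_1 and 2.93 in pelvic_2 glia, with overlapping neighbours, so that it lay above the neuronal level in lumbar and pelvic glia and did not follow the order seen in neurons. From lumbar to pelvic_2 glia, 4 of 6 HoxC genes were 2-fold higher (*Hoxc8*, *Hoxc9*, *Hoxc10*, *Hoxc11*), against 1.49% of all genes, and 0 of 6 lower, against 0.950%.

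Fibroblasts differed in that the anterior and middle genes, and *Hoxc10*, were lower in the pelvic than in the lumbar ganglion. *Hoxc6* was at 18.2 CPM in stellate, 42.9 in coeliac, 55.0 in lumbar, 2.78 in pelvic_1 and 2.54 in pelvic_2 fibroblasts, and the lumbar level was 20.7 times the pelvic mean. *Hoxc8* was at 10.9, 52.6, 47.4, 2.65 and 2.15 CPM, a lumbar level 19.7 times the pelvic mean. *Hoxc10* was at 0 UMIs in stellate, 5 UMIs (0.924 CPM) in coeliac, 61.3 CPM in lumbar (54.0 to 69.3), 10.7 in pelvic_1 and 6.36 in pelvic_2 fibroblasts.

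Lumbar fibroblasts thus held more *Hoxc10* relative to all UMIs than lumbar neurons (35.0 CPM), and their share of cells with a UMI was 63.7% of 179. *Hoxc9* was at 1.78, 22.3, 34.6, 8.74 and 4.30 CPM, and *Hoxc11* at 0 UMIs in stellate and coeliac, 4 UMIs (0.961 CPM) in lumbar and 4.77 and 5.18 CPM in pelvic fibroblasts. From lumbar to pelvic_2 fibroblasts, 5 of 6 HoxC genes were 2-fold lower (*Hoxc4*, *Hoxc6*, *Hoxc8*, *Hoxc9*, *Hoxc10*), against 1.77% of all genes, and 1 of 6 was higher (*Hoxc11*), against 4.54%. The lumbar library had the fewest fibroblasts, and 1 library stands for it.

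Vessel cells gave few HoxC UMIs, between 60 and 106 in each of the 5 libraries that had any. *Hoxc10* was at 0 UMIs in stellate and coeliac vessels, 12.9 CPM in lumbar (16 UMIs), 7.82 in pelvic_1 and 13.2 in pelvic_2 vessels, with overlapping intervals among the last 3. In pelvic_2, 30 of the 45 *Hoxc10* UMIs came from 1 of 115 cells, and without it the level was 4.55 CPM. *Hoxc11* was found only in pelvic vessels among the 6 libraries, with 13 UMIs in pelvic_1 (3.51 CPM) and 9 in pelvic_2 (2.63 CPM). A gene with 0 UMIs in lumbar vessels has an upper bound of 2.98 CPM, above the pelvic_2 level. All neighbours in the order of *Hoxc11* levels overlapped, so a limit to pelvic vessels is not shown. *Hoxc6* was at 7.53, 16.4, 12.9, 1.62 and 2.34 CPM, and its lumbar level was 6.54 times the pelvic mean. In all, the genes at 5 CPM or more numbered 4, 3, 3 and 6 in glia, 4, 4, 5 and 3 in fibroblasts and 4, 4, 4 and 1 in vessels of the stellate, coeliac, lumbar and pelvic ganglia.

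Since free neuronal RNA can enter every droplet, the ratio of each HoxC gene at 10 CPM or more in neurons, its level in another class over that in neurons, was set beside the same ratio for genes restricted to neurons (*Th*, *Dbh*, *Chat*, *Slc18a3*, *Snap25*, *Syt1*, *Prph*, *Chrna3* and *Ret*, by the same minimum). In pelvic_2 glia the highest ratio of these genes was 0.318 (*Th*), and 5 of 6 HoxC genes compared were above it, with *Hoxc4* at 1.18 and *Hoxc6* at 0.990 the highest and *Hoxc10*, at 0.238, below it. The median of the neuron-restricted genes there was 0.0313, so *Hoxc10* was below the highest ratio but above the median. In pelvic_1 glia all 6 were above the highest, from 0.318 for *Hoxc10* to 0.877 for *Hoxc4*. In stellate glia *Hoxc4* (0.364) and *Hoxc6* (0.348) were above the highest, while *Hoxc8* (0.167) and *Hoxc9* (0.136) were not. In coeliac glia *Hoxc8* (0.0516) and *Hoxc9* (0.0520) were not above it either, and in lumbar glia *Hoxc4* (0.463) and *Hoxc6* (0.711) were. In lumbar fibroblasts the highest ratio of the neuron-restricted genes was 0.0221, and all 5 HoxC genes were above it, with *Hoxc6* at 2.72 and *Hoxc10* at 1.75. In fibroblasts of the other libraries 3 of 4 were above it in the stellate, 4 of 4 in the coeliac, 4 of 6 in pelvic_1 and 6 of 6 in pelvic_2. In vessels of the stellate, coeliac, lumbar, pelvic_1 and pelvic_2 libraries these counts were 3 of 4, 4 of 4, 5 of 5, 1 of 6 and 0 of 6. In pelvic_2 vessels the highest ratio of the neuron-restricted genes was 0.289 (*Dbh*) and their median 0.0512. The HoxC ratios there lay between these values, with the cell rich in HoxC UMIs included. For the HoxC genes at or below the highest ratio, the part of free RNA in their values was not tested. In pelvic_1 fibroblasts *Hoxc6* and *Hoxc9* were above the highest ratio, but their intervals overlapped those of macrophages, as given above. The comparison of *Hoxc8*, *Hoxc9* and *Hoxc10* in lumbar glia and of *Hoxc4* and *Hoxc6* in coeliac glia is not given here.

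**Figure D5:**
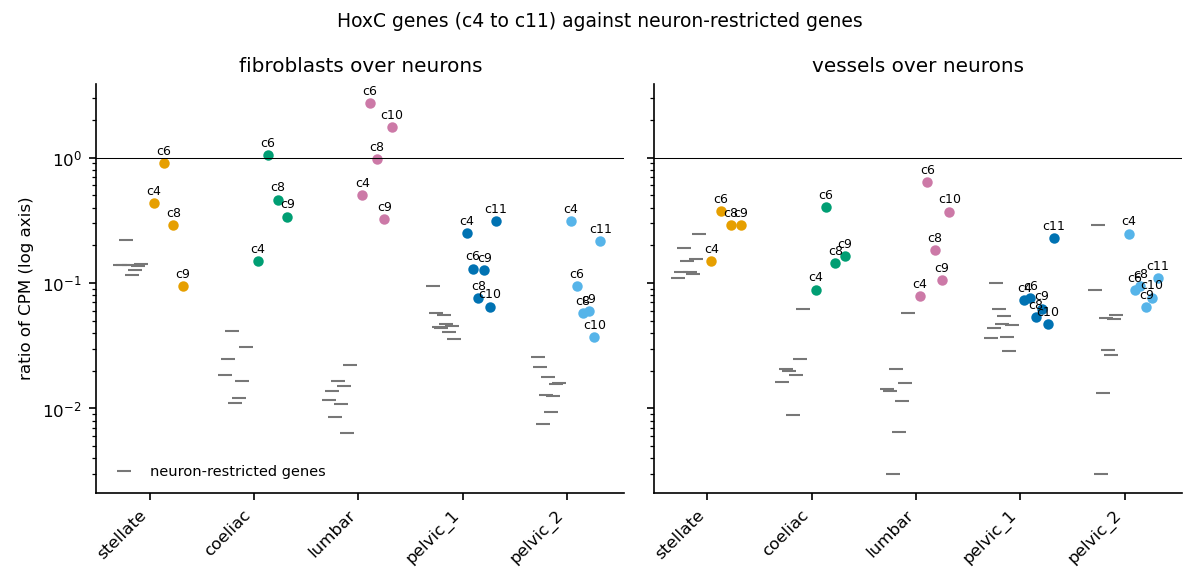
Ratio of the level in fibroblasts or vessels over the level in neurons (y axis, CPM ratio, log scale) for each HoxC gene at 10 CPM or more in neurons (points, named by the end of the symbol) and for genes restricted to neurons (grey ticks), by library (x axis). The horizontal line marks equal levels. Ratios of 0 are drawn at 0.003. In lumbar fibroblasts all HoxC genes lie above every grey tick, with *Hoxc6* at 2.72, whereas in pelvic_2 vessels no HoxC gene lies above all grey ticks.

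To ask whether the genes differed between neurons and other cells of the same ganglia, summed counts of each class and library were tested with edgeR's quasi-likelihood test, with the library as a block and Benjamini-Hochberg adjustment over all 14395 genes tested. The 6 libraries were not stated to be of separate animals, so that p-values measure the spread between these libraries. Of the 9 members, 7 had enough counts to be tested, and *Hoxc12* and *Hoxc13* did not pass the filter. Against glia, 3 of 7 were higher in neurons, where 41.7% of all genes were higher and 34.9% lower, and 0 of 7 were lower. *Hoxc4* was higher by 1.24 ± 0.36 on the log2 scale (SE, edgeR adjusted p = 0.00543), *Hoxc8* by 2.08 ± 0.73 (0.0170) and *Hoxc9* by 2.11 ± 0.59 (0.00407). *Hoxc10*, with 2.12 ± 0.92, missed the threshold (adjusted p = 0.0507), as did *Hoxc6* (0.90, 0.202), *Hoxc11* (0.54, 0.588) and *Hoxc5* (-1.10, 0.0791). *Hoxc5* was called lower in neurons by DESeq2 (-1.34, adjusted p = 0.0376) and by edgeR without the coeliac library (-1.56, 0.0365). The count of members called is close to the share of all genes called and is no result about the cluster. Without the coeliac library the *Hoxc4* call was lost (adjusted p = 0.0726), and that of *Hoxc8* was lost without the stellate, the coeliac or the lumbar library (up to 0.0804), whereas *Hoxc9* was called in all 13 alternatives (0.00236 to 0.0246).

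Against fibroblasts, 2 of 7 were higher in neurons, *Hoxc4* by 1.73 on the log2 scale (edgeR adjusted p = 0.000433) and *Hoxc9* by 2.40 (0.00195), where 41.1% of all genes were higher and 37.3% lower. *Hoxc8* (1.55, adjusted p = 0.0606) and *Hoxc10* (1.84, adjusted p = 0.150) were not called. Without the lumbar library, in which fibroblasts held more *Hoxc10* than neurons, 5 of 7 were called and the *Hoxc10* difference was 3.96. Of all 14401 genes tested there, 5379 were higher and 5515 lower, so the count is no result about the cluster. In the libraries left, *Hoxc10* UMIs of neurons and fibroblasts came almost only from the pelvic ganglion. Against vessels, 5 of 7 were higher, where 41.0% of all genes were higher and 37.3% lower. These were *Hoxc4* by 3.11 (adjusted p = 7.82e-06), *Hoxc9* by 3.34 (0.000417), *Hoxc8* by 2.92 (0.00404), *Hoxc10* by 3.52 (0.0109) and *Hoxc6* by 2.13 (0.0163). The *Hoxc10* call against vessels was lost without either pelvic library and by DESeq2. The median difference over the tested HoxC genes was 1.24 against glia, 1.55 against fibroblasts and 2.92 against vessels, beside 0.12, 0.07 and 0.08 over all genes. The normalization centres the values over all genes on no difference. The medians therefore describe the tested genes and are no result about the cluster.

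Whether the ratio of neurons over glia differed between the 2 pelvic and the 3 sympathetic libraries was tested as an interaction in the same way. By edgeR 0 of 6 HoxC genes were called at an adjusted p under 0.05, where 1.10% of all genes were. At an unadjusted p under 0.05 there were 5 of 6, and the share of all genes at that threshold is not given here. The estimates were negative for all 6, a lower ratio in the pelvic libraries, with -2.53 for *Hoxc8* (adjusted p = 0.0786), -2.31 for *Hoxc9* (0.0765), -1.80 for *Hoxc4* (0.212) and -1.35 for *Hoxc10* (0.258) on the log2 scale. DESeq2 called 3 of 6 (*Hoxc4*, *Hoxc8* and *Hoxc9*), and 628 of all 13972 genes tested. Without the stellate library edgeR called *Hoxc8* (-2.96) and *Hoxc9* (-2.46), and also *Hoxc11* with the opposite sign, where neurons of the sympathetic libraries had 0 UMIs and lumbar glia 4.

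The gene whose pattern over the 24 sums of class and library was most like that of *Hoxc6*, *Hoxc9* or *Hoxc10* was another Hox gene, by Pearson's r of log2(CPM + 1), over sums that share libraries and depth. For *Hoxc6* the first was *Hoxc8* (r = 0.955), and 4 of the first 20 were Hox genes. Outside the Hox family followed *Sytl4* (0.728), *Anapc4*, *Tfap2b*, *Ppat* and *Opcml*. For *Hoxc9* the first was *Hoxc8* (0.899), with 2 Hox genes among 20, and outside the family *Sytl4* (0.808), *Akirin2*, *Ppp2ca*, *Cops2* and *Stk39*. For *Hoxc10* the first was *Hoxa10* (0.859), with 5 Hox genes among 20 (*Hoxa10*, *Hoxa9*, *Hoxc11*, *Hoxd10*, *Hoxc9*), and outside the family *Nptx2* (0.753), *Mucl1*, *Nccrp1*, *Calca* and *Slc35d3*. By Spearman's coefficient, 3 of these 15 places outside the family were filled by a gene named here for the same HoxC gene.

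Paralogues of groups 9 and 10 were also higher in pelvic than in lumbar neurons. In lumbar, pelvic_1 and pelvic_2 neurons *Hoxa9* was at 5.15, 19.1 and 30.9 CPM, *Hoxd9* at 2.63, 44.6 and 40.0 CPM, *Hoxb9* at 0.124, 7.36 and 4.71 CPM and *Hoxa10* at 2.38, 39.3 and 47.5 CPM. *Hoxd10* was at 0 UMIs in lumbar neurons and 30.1 and 29.1 CPM in the pelvic libraries. *Hoxc9* was thus the gene of its group that did not share this step between lumbar and pelvic neurons. Of 8 genes for Hox partner proteins, 3 were higher in neurons than in glia by edgeR (*Pbx4* by 1.06 on the log2 scale, *Meis1* by 3.11 and *Meis3* by 1.71), 1 was lower (*Pknox2* by -1.57) and 4 were not called. Against fibroblasts 3 were higher and 3 lower, among them *Meis2* by -6.25, and against vessels 4 were higher and 4 lower. *Pbx3* stood at 4.69 to 8.67 CPM in the neurons of the 4 other ganglia and at 39.6 and 33.8 CPM in pelvic_1 and pelvic_2 neurons.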

How the data were processed

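Counts are those deposited by the authors, UMIs per gene and droplet, not normalized, from droplets kept as cells by the software named in the submitters' processing notes (Cell Ranger 6.0.1, genome mm10). Kept were droplets in which more than 1500 but fewer than 11000 genes were detected and mitochondrial UMIs made up less than 15%. Log counts from sctransform 0.4.2 (Seurat 5.3.0, R 4.3.3) served only to assign classes: neurons with a neuronal marker mean above 3 and a glial one below 1.15, and the other classes by their own markers. No doublet caller was run. Set aside were non-neuronal cells positive for markers of more than 1 class, and cells above the neuronal threshold that were not below the glial one. Neurons were not screened for markers of fibroblasts, vessels or macrophages. Per class and library, raw UMIs were summed (at least 20 cells) in Python 3.11.15 with scipy 1.17.1. Tests used edgeR 4.0.16, with DESeq2 1.42.0 as an alternative, and were tested on simulated data. Shares were recomputed after thinning each cell. Homeobox sequences came from GENCODE M21 transcripts.

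The named genes were the 9 members, the other genes inside the cluster, the 5 genes most like *Hoxc6*, *Hoxc9* and *Hoxc10*, Hox partners, Hox paralogues of groups 9 and 10 and neuron-restricted genes. Results for some of these genes, and part of the comparison with neuron-restricted genes in glia, are not reported here. Members, lists and tests were chosen with earlier results of these data known. Bands of depth for lumbar neurons, the expectation from depth, the posterior share and the omission of 1 vessel cell per library were chosen after values were seen.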

Additional observations from a re-analysis of the deposited data

Results flagged for a closer look

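In 6 comparisons of cell classes, both pelvic libraries lay on one side of the lumbar library in one class and on the other side in the other class, with intervals apart. The difference between classes was not tested, since the lumbar ganglion has 1 library. For *Hoxc8* the pelvic mean over the lumbar level was -0.43 on the log2 scale in neurons and 2.13 in glia, a difference of -2.56, and it was -4.30 in fibroblasts, a difference of 6.43 between glia and fibroblasts. For *Hoxc9* it was -0.60 in neurons, 1.28 in glia and -2.41 in fibroblasts, a difference of -1.87 between neurons and glia and 3.68 between glia and fibroblasts. For *Hoxc10* it was 2.27 in neurons, 3.59 in glia and -2.84 in fibroblasts, a difference of 5.12 between neurons and fibroblasts and 6.44 between glia and fibroblasts. Only 179 lumbar fibroblasts stand behind the last values.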

How the results depend on the processing

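The count of HoxC genes called between neurons and glia, all higher in neurons in the main analysis, rose to 5 when only these 2 classes were fitted. *Hoxc11* was not tested in that fit, in which 5240 of all 13893 genes were higher and 5155 lower. Leaving out 1 library gave 2 to 4, where 5254 to 5910 of all genes were higher and 4781 to 5593 lower. The 2 without the coeliac library were *Hoxc9* higher and *Hoxc5* lower in neurons. Against fibroblasts it was 2 to 5 with 1 library left out, with 5 without the lumbar library, and against vessels 4 to 6. In those fits, against fibroblasts, 5209 to 5786 of all genes were higher and 5179 to 5850 lower. Against vessels these numbers were 5303 to 5839 and 5107 to 5733. With endothelial cells alone, all tested HoxC genes were called higher in neurons, where 5878 of all 14376 genes were higher and 4908 lower. *Hoxc5* (edgeR adjusted p = 0.0379) and *Hoxc11* (0.0296) were among them. These counts are no result about the cluster. For the interaction of pelvic and sympathetic libraries the count was 3 by DESeq2, 3 with no filter on low counts, 2 with glia of a neuronal marker mean below 1.5 and 0 to 3 with 1 library left out (3 without the stellate). Over all genes, 628 of 13972, 394 of 24223, 355 of 13875 and, without the stellate, 419 of 14033 were called. *Hoxc8* and *Hoxc9* were called with a negative estimate wherever any gene was, joined by *Hoxc4* under DESeq2 and by *Hoxc11* with no filter and without the stellate, there with a positive one. DESeq2 turned the sign of *Hoxc11* against glia (-0.32), fibroblasts (-1.01) and vessels (-0.79), and leaving out pelvic_2 that of *Hoxc6* against fibroblasts, which ranged from -0.015 to 1.09 with 1 library left out. None of these was called in the alternative that turned it. The cause was not tested.

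Of the genes reaching 5 CPM, a minimum of 2 CPM gave 5 in coeliac glia, 6 in lumbar glia, 6 in pelvic fibroblasts and 3 in pelvic vessels. A minimum of 10 CPM gave 1 in stellate glia, 2 in stellate vessels, 1 in coeliac glia and 0 in pelvic fibroblasts. A share of cells of 10% in place of CPM gave 0 in stellate glia, 1 in stellate fibroblasts, 0 in stellate vessels, 3 in pelvic glia, 0 in pelvic fibroblasts and 0 in pelvic vessels. Non-neuronal cells with a neuronal marker mean below 1.5 gave 1 in stellate glia, 2 in stellate vessels and 0 in pelvic vessels. Selection on log counts per 10000 gave 2 in stellate vessels. Thinning to 2000 UMIs gave 0 in stellate, 0 in coeliac, 2 in lumbar and 0 in pelvic vessels. With 1 pelvic library left out the count was 6 in pelvic neurons, 6 to 7 in glia, 2 to 3 in fibroblasts and 1 in vessels. In neurons all counts stayed within 1.5 times the main one under these settings. Of 36 pairs of gene and ganglion, 22 were at 10% of neurons or more, and 13 after thinning to 4000 UMIs. Spearman's coefficient shared 3 named genes of the 15. The other 127 values that answer a comparison and 338 single gene values stayed on the same side, 32 single gene values passed the threshold only in the alternative and 7 only in the main analysis. Ganglia could not be paired by replicate number, because those other than the pelvic have 1 library each. The classes of a library were paired in the tests through the library block. Depth limits levels in vessels, where 3 UMIs were up to 2.43 CPM, and in *Hoxc12* and *Hoxc13*.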

Other observations

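*Hoxd9* and *Hoxb9*, Hox genes outside the cluster, had patterns unlike that of *Hoxc9*. *Hoxd9* was found in vessels of the sphenopalatine library, where every HoxC gene had 0 UMIs in that class, with 88 UMIs (42.4 CPM, 34.0 to 52.3), against 6 UMIs (0.0789 CPM) in sphenopalatine neurons. In vessels of the other libraries it was at 55.7 CPM in stellate, 44.6 in coeliac, 55.8 in lumbar, 51.2 in pelvic_1 and 27.2 in pelvic_2, so that its level in vessels did not follow the order of ganglia seen for *Hoxc9*. *Hoxb9* was at 9.02 CPM in stellate, 23.0 in coeliac, 11.4 in lumbar, 19.5 in pelvic_1 and 12.6 in pelvic_2 glia, while stellate, coeliac and lumbar neurons had 11, 1 and 9 UMIs, at most 0.139 CPM. *Hotair* had 29 UMIs in pelvic_1 glia (3.58 CPM), 27 in pelvic_2 glia (3.77 CPM), 7 and 5 UMIs in pelvic fibroblasts and 0 UMIs in every class of the other 4 ganglia.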
